A study of Mus musculus with 6 samples.

Results

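Glucose uptake, the early steps of glycolysis and the release of lactate were followed through 10 genes, 10 of the 38124 genes of the deposited table, taken by symbol from a list drawn up for glycolytic genes with few processed pseudogenes. There are 8 entry genes, Slc2a1, Hk1, Hk2, Hk3, Gpi1, Pfkl, Pfkp and Pfkfb3, and 2 lactate genes, Ldha and Slc16a3. Polyadenylated RNA came from macrophages grown in culture from the bone marrow of wild type C57BL mice, whose age and sex are not given in the sources used here. One group of 3 libraries was untreated. The other group of 3 libraries came from macrophages exposed for 24 hr to apoptotic thymocytes at a ratio given as 1:40, and these dying cells, killed with the glucocorticoid dexamethasone, had been removed before harvest. Both groups are wild type and carry no engineered allele. Each library is a biological replicate according to the series' design text, and the title of the series concerns the pentose phosphate pathway in resident macrophages of the thymus under the stress of clearing dead cells.

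Glucose enters macrophages through facilitative transporters and is trapped as glucose 6-phosphate by hexokinases. Glucose 6-phosphate is the branch point to the pentose phosphate pathway, and what continues through the isomerase Gpi1 and phosphofructokinase is committed to glycolysis. At the far end, lactate dehydrogenase turns pyruvate into lactate, which leaves the cell with a proton through monocarboxylate transporters. Inflammatory macrophages are known for a high glycolytic rate with release of lactate.

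Of the 8 entry genes, 4 rose with apoptotic thymocytes (Slc2a1, Hk2, Pfkl and Pfkfb3), 3 fell (Hk1, Hk3 and Pfkp) and Gpi1 did not pass the test. Both lactate genes fell. The largest rise was in Pfkl, 1.94-fold, and the largest fall in Ldha, 1.84-fold. These 9 calls among 10 genes stand beside 64.8% of all 10173 tested genes called in either direction, 18.8% called higher and 46.0% called lower (limma on log2(RPKM + 1), Benjamini-Hochberg adjusted p under 0.05). RPKM is a read count divided by the length of the gene and by the depth of the library. The ranges of the 3 untreated and the 3 treated libraries did not overlap in any of the 10 genes, against 69.6% of all tested genes. The median log2 change was -0.02 over the 10 genes and -0.13 over all tested genes, 0.36 over the entry genes and -0.75 over the lactate genes. After median-of-ratios scaling, which moved the median of all genes from -0.13 to -0.0031, 5 of the 10 were higher and 4 lower, beside 59.9% of all genes called in either direction, 30.2% higher and 29.8% lower. Changes relative to the median gene are therefore given below as well.

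**Figure D1:**
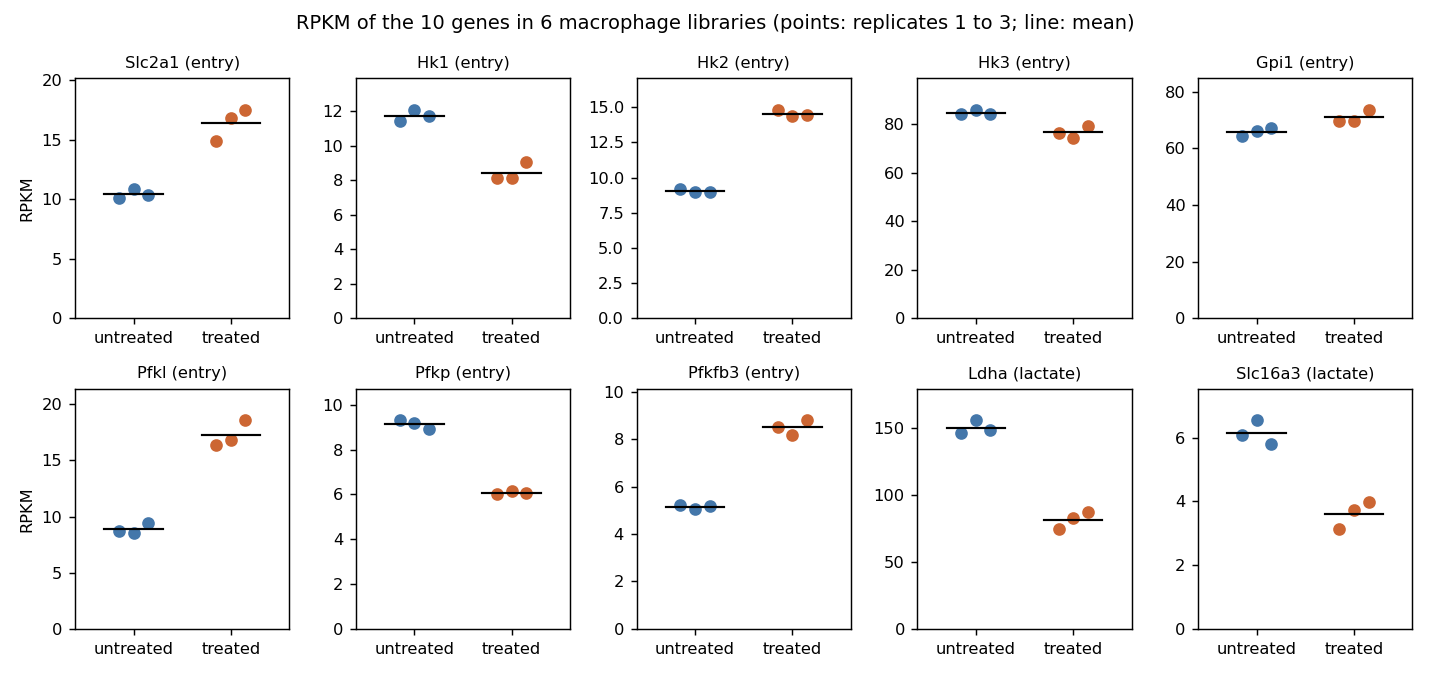
RPKM of each of the 10 genes (vertical axis from 0, scaled to each gene) in untreated and treated macrophage libraries, with points for replicates 1 to 3 of each group and a line at the mean. The 2 groups are apart in every panel, upward for Slc2a1, Hk2, Gpi1, Pfkl and Pfkfb3 and downward for the rest, with small distances for Hk3 and Gpi1.

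Depth was 19315132 to 25933208 mapped reads per library, and the 10 genes held from 432 reads (Slc16a3) to 11105 reads (Ldha) in a library. The macrophage label was checked against 8 marker genes, all of which were above 0 in both groups, led by Lyz2 (13390 and 19420 RPKM in untreated and treated means), Cd68 (1274 and 1144) and Csf1r (536 and 360). Within this list Mertk was higher with apoptotic thymocytes (21.9 and 94.98), and Itgam (119 and 33.1), Cd14 (194 to 208 in untreated and 44.6 to 54.6 in treated libraries) and Fcgr1 (52.7 and 7.43) were lower. The 2 groups did not overlap in any of the 8 markers, against 69.6% of all tested genes. The summed level of 18 thymocyte markers was 4.82 to 5.31 RPKM in untreated and 2.29 to 2.69 in treated libraries, most of it from Cd4. Cd3e, Cd8b1, Rag2, Ptcra and Themis were at 0 in every library. Near the floor, means in untreated and treated libraries rose for Cd3d (0 and 0.0422), Cd3g (0 and 0.0252), Cd8a (0.0045 and 0.0178) and Tcf7 (0.0119 and 0.0252). The means of the remaining thymocyte markers were lower in treated libraries. A list of 8 neutrophil genes summed to 6.31 to 6.94 RPKM in untreated and 37.0 to 40.4 in treated libraries, mostly S100a8 (5.86 and 26.3) and S100a9 (0.726 and 11.5), with Ly6g at 0. At low levels, Camp (0.024 and 0.758), Ltf (0.041 and 0.33), Elane (0 and 0.107) and Retnlg (0 and 0.164) were also higher in treated means. Mpo was lower (0.0246 and 0.0085). The 5 B cell genes summed to 0.433 to 0.596 RPKM in untreated and 0.136 to 0.195 in treated libraries, with Pax5 at 0, and the 6 erythroid genes summed to 0 to 0.0515 in untreated and 0.923 to 1.48 in treated libraries. The part of these lists in the results was not tested. In such bulk libraries, fewer cells of a type and less RNA per cell cannot be told apart.

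Of the promoters, those of Hk2 and Ldha are shown because these genes share a motif of hypoxia-inducible factor and changed in opposite directions. They are the 250 bases before a RefSeq start on GRCm38.p6, chr6:82774455-82774704 on the minus strand for Hk2 and chr7:46845554-46845803 on the plus strand for Ldha, written 5′ to 3′ on the strand of the gene. Capitals mark ACGTG or GCGTG, the core of a hypoxia response element, on either strand.
Hk2: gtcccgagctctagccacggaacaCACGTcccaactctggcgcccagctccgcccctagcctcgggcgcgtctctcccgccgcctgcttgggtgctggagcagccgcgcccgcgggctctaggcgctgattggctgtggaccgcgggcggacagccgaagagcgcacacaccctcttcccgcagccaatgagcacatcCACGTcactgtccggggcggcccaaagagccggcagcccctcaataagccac
Ldha: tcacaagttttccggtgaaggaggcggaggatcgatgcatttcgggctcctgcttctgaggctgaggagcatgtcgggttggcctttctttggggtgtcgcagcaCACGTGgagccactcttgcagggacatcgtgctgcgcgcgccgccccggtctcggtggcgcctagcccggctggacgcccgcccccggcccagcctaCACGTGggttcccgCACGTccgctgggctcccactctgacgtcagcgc
The Hk2 window holds 2 matches to ACGTG. The Ldha window holds 5, of which 4 lie in its 2 E-boxes, CACGTG, since an E-box holds the core on both strands. The bases after this Ldha start were not found in the GENCODE M21 transcripts of the gene. The window of its other start, whose following bases were found there, holds 0 ACGTG, 1 GCGTG and 0 E-boxes. RefSeq gives 13 start windows for the 10 genes, with a second start for Hk1, Pfkfb3 and Ldha. Of these, 11 hold ACGTG or GCGTG, compared with 38.6% of 32851 mouse promoter windows of the same length (16.6% for ACGTG and 28.2% for GCGTG alone). The comparison windows were matched for length and not for base composition. G and C made up 47.2% (Hk3) to 73.6% (Slc16a3) of the 13 windows, so the difference was not tested as a trait of these genes. CACGTG was found in 2 of the 13 windows (6.02% of all), the GC box GGGCGG in 8 (32.7%) and TATAAA in 0 (12.4%), each searched on both strands. The window of the rising gene Slc2a1 holds 2 such hypoxia cores, as does that of the falling gene Slc16a3. A match describes the letters and not a bound site.

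Slc2a1 (chromosome 4, 119108711 to 119137330, plus strand), the facilitative glucose transporter GLUT1, stood at 10.1, 10.9 and 10.4 RPKM in untreated and at 14.9, 16.9 and 17.5 in treated replicates 1 to 3. Every treated library was above every untreated one, and treated replicate 1 was the lowest of its group. The mean rose 1.58-fold from 10.4 ± 0.401 to 16.4 ± 1.36 RPKM (SD, n = 3), a log2 change of 0.61 (SE 0.0632, adjusted p = 3.12e-05 in limma) and 0.74 relative to the median gene. The other glucose transporter genes of a list of 57 further genes of glucose use did not rise. Slc2a6, a transporter of intracellular membranes, fell 2.67-fold from 5.69 ± 0.448 to 2.13 ± 0.0865 RPKM, Slc2a8 fell 1.52-fold from 7.14 ± 0.154 to 4.71 ± 0.162, and Slc2a3, the high-affinity transporter GLUT3, fell 1.59-fold from 1.92 ± 0.0749 to 1.2 ± 0.138. Slc2a9, known as a urate transporter, was 2.97 ± 0.171 and 2.94 ± 0.186 RPKM and did not pass (adjusted p = 0.878). Of these 5 transporter genes, Slc2a1 was called higher and 3 were called lower, beside 18.8% of all tested genes called higher and 46.0% lower.

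Hexokinases carry out the phosphorylation that traps glucose, and the 3 genes measured here went different ways. Hk2 (chromosome 6, 82725025 to 82774454, minus strand), the inducible isoform that binds mitochondria, stood at 9.22, 8.94 and 9.0 RPKM in untreated and at 14.8, 14.4 and 14.5 in treated libraries. It rose 1.61-fold (log2 change 0.63, SE 0.0428, adjusted p = 1.65e-06), and its libraries were close within each group, with a coefficient of variation of 1.63% and 1.68%. Hk1 (chromosome 10, 62268855 to 62379908, minus strand), the widely expressed mitochondrial isoform, stood at 11.4, 12.1 and 11.7 in untreated and at 8.12, 8.10 and 9.08 in treated libraries. It fell 1.39-fold (log2 change -0.43, SE 0.0550, adjusted p = 0.000117), which was -0.30 relative to the median gene. The order of Hk1 and Hk2 in RPKM was thereby exchanged, since Hk1 was above Hk2 in each untreated library and below it in each treated library. This order depends on the gene lengths behind the RPKM, 8532 bases for Hk1 and 5969 for Hk2.

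Hk3 (chromosome 13, 55005985 to 55021385, minus strand), a hexokinase known from myeloid cells, was by far the most abundant of the 3 per length of gene. It stood at 84.1, 86.0 and 84.3 RPKM in untreated and at 76.4, 74.3 and 79.3 in treated libraries, a 1.11-fold fall (log2 change -0.14, SE 0.0416, adjusted p = 0.0136). This change was that of the median gene, from which it differed by -0.01. Its call ended once libraries were scaled by median of ratios (0.0026 on the log2 scale, adjusted p = 0.962) or by their upper quartile (adjusted p = 0.518), and also without untreated replicate 2 (adjusted p = 0.0502) or treated replicate 2 (adjusted p = 0.0714).

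As shares of the summed RPKM of Hk1, Hk2 and Hk3, Hk2 took 8.80, 8.35 and 8.57% in untreated and 14.9, 14.8 and 14.1% in treated libraries. Hk1 went from 11.1% ± 0.203 to 8.46% ± 0.332 and Hk3 from 80.3% ± 0.0396 to 76.9% ± 0.158 (SD, n = 3). The sum of the 3 genes was 106 ± 1.27 RPKM without and 99.7 ± 3.06 with apoptotic cells. The direction of this sum turned with scaling, to 100.3 ± 0.602 and 104.9 ± 3.55 by median of ratios and to 101.5 ± 0.581 and 103.7 ± 2.94 by the upper quartile. Shares do not move with the scaling of a library, but shares and sums both depend on the length used for each gene. Adpgk, an enzyme that phosphorylates glucose with ADP, fell 1.2-fold from 12.2 ± 0.373 to 10.2 ± 0.108 RPKM, a call that ended with median-of-ratios scaling (adjusted p = 0.0813).

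**Figure D2:**
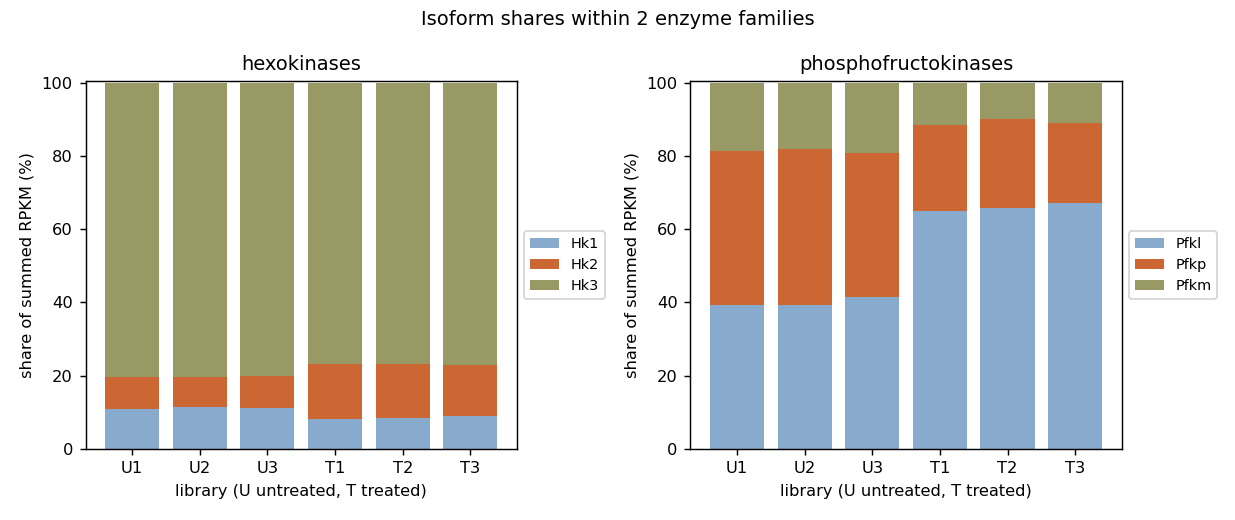
Share in percent of the summed RPKM of Hk1, Hk2 and Hk3 (left) and of Pfkl, Pfkp and Pfkm (right) in each library, untreated replicates U1 to U3 and treated replicates T1 to T3. Hk2 goes from a mean of 8.57% to 14.6% under a large Hk3 share, and Pfkl from 40.1% to 66.0%.

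Gpi1 (chromosome 7, 34202122 to 34230289, minus strand), the isomerase that makes fructose 6-phosphate, was the entry gene with no call. It stood at 64.2, 66.1 and 67.3 RPKM in untreated and at 69.7, 69.6 and 73.6 in treated libraries. Its log2 change was 0.11 with a 95% interval of 0.0088 to 0.20 (adjusted p = 0.0545), or 0.24 relative to the median gene. It was called higher after scaling by median of ratios (0.25, adjusted p = 0.000875) or by the upper quartile (0.22, adjusted p = 0.00131) and without treated replicate 1 (0.12, adjusted p = 0.0414).

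Phosphofructokinase makes fructose 1,6-bisphosphate and is a main point of control, and its isoform genes also went different ways. Pfkl (chromosome 10, 77986947 to 78010083, minus strand), the liver-type isoform, stood at 8.73, 8.51 and 9.39 RPKM in untreated and at 16.4, 16.8 and 18.6 in treated libraries. It rose 1.94-fold from 8.88 ± 0.458 to 17.3 ± 1.14 RPKM (log2 change 0.89, SE 0.0593, adjusted p = 1.49e-06), 1.02 relative to the median gene. Pfkp (chromosome 13, 6579768 to 6648777, minus strand), the platelet-type isoform, stood at 9.30, 9.18 and 8.93 in untreated and at 6.0, 6.17 and 6.08 in treated libraries, a 1.5-fold fall (log2 change -0.52, SE 0.0450, adjusted p = 9.16e-06). In RPKM, the untreated ranges of the 2 genes overlapped, whereas in each treated library Pfkl was above Pfkp. Pfkm, the muscle-type isoform from the further list, fell 1.46-fold from 4.10 ± 0.217 to 2.81 ± 0.254 RPKM (adjusted p = 0.000432).

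Of the summed RPKM of the 3 phosphofructokinase genes, Pfkl took 39.4, 39.4 and 41.5% in untreated and 64.9, 65.9 and 67.1% in treated libraries. Pfkp went from 41.3% ± 1.66 to 23.3% ± 1.17 and Pfkm from 18.5% ± 0.533 to 10.7% ± 0.765. The sum itself was 22.1 ± 0.536 RPKM in untreated and 26.2 ± 1.31 in treated libraries, with a higher value in each treated library. The difference in the Pfkl share, 25.8 percentage points, was larger than that in the Hk2 share, 6.04 points. Shares and sums depend on the gene lengths behind the RPKM, recovered as 4395 bases for Pfkl and 9395 for Pfkp. In reads, Pfkp was above Pfkl in each untreated library (1688, 2061 and 1936 against 741, 894 and 952). It was below Pfkl in each treated library (1463, 1321 and 1345 against 1870, 1683 and 1921).

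Pfkfb3 (chromosome 2, 11471430 to 11502101, minus strand) makes fructose 2,6-bisphosphate, which activates phosphofructokinase. It stood at 5.22, 5.05 and 5.18 RPKM in untreated and at 8.51, 8.19 and 8.79 in treated libraries. This was a 1.65-fold rise (log2 change 0.63, SE 0.0481, adjusted p = 3.85e-06), 0.76 relative to the median gene. Of its relatives, Pfkfb4 fell 1.34-fold from 9.24 ± 0.367 to 6.89 ± 0.0362 RPKM (adjusted p = 0.000118). Pfkfb2 was 4.3 ± 0.417 and 3.84 ± 0.510 (adjusted p = 0.204), and passed as lower without treated replicate 1 (adjusted p = 0.0365). Tigar, a fructose 2,6-bisphosphatase listed in the table as 9630033F20Rik, was 4.64 ± 0.244 and 4.67 ± 0.273 RPKM (adjusted p = 0.905). The remaining members of that role, Pfkfb1, Fbp1 and Fbp2, were too low to be tested.

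Ldha (chromosome 7, 46841475 to 46855627, plus strand) is the lactate dehydrogenase subunit that favours lactate. Its mean RPKM was the highest of the 10 genes in both groups, though Hk3 was above it in treated replicate 1. Ldha stood at 146, 156 and 149 RPKM in untreated and at 75.0, 82.6 and 87.4 in treated libraries. Every treated library was below every untreated one. The log2 change was -0.87 (SE 0.0594, adjusted p = 1.66e-06), -0.74 relative to the median gene. Ldhb, the subunit that favours the reverse reaction, was 5.81 ± 0.331 and 5.54 ± 0.236 RPKM and did not pass (adjusted p = 0.381). Its sign turned positive under both scalings.

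Slc16a3 (chromosome 11, 120948480 to 120960868, plus strand), the lactate exporter MCT4, stood at 6.09, 6.54 and 5.81 RPKM in untreated and at 3.13, 3.73 and 3.99 in treated libraries. It fell 1.70-fold (log2 change -0.63, SE 0.0770, adjusted p = 8.93e-05), -0.50 relative to the median gene. It had 432 to 832 reads, the fewest of the 10 genes in each treated library, where Slc2a1 had the fewest in each untreated library, and its treated libraries varied most, with a coefficient of variation of 12.2%. Slc16a1, the transporter MCT1, fell 1.27-fold from 3.96 ± 0.156 to 3.10 ± 0.203 (adjusted p = 0.00277). Slc16a7, the transporter MCT2, was 5.50 ± 0.0792 and 4.98 ± 0.381 RPKM (adjusted p = 0.0984). Bsg, the chaperone basigin that brings MCT1 and MCT4 to the surface, was 108 ± 1.45 and 117 ± 4.07 RPKM (adjusted p = 0.0520). It was called higher after scaling by median of ratios (adjusted p = 0.000789) or by the upper quartile (adjusted p = 0.00107) and without treated replicate 1 (adjusted p = 0.0234).

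**Figure D3:**
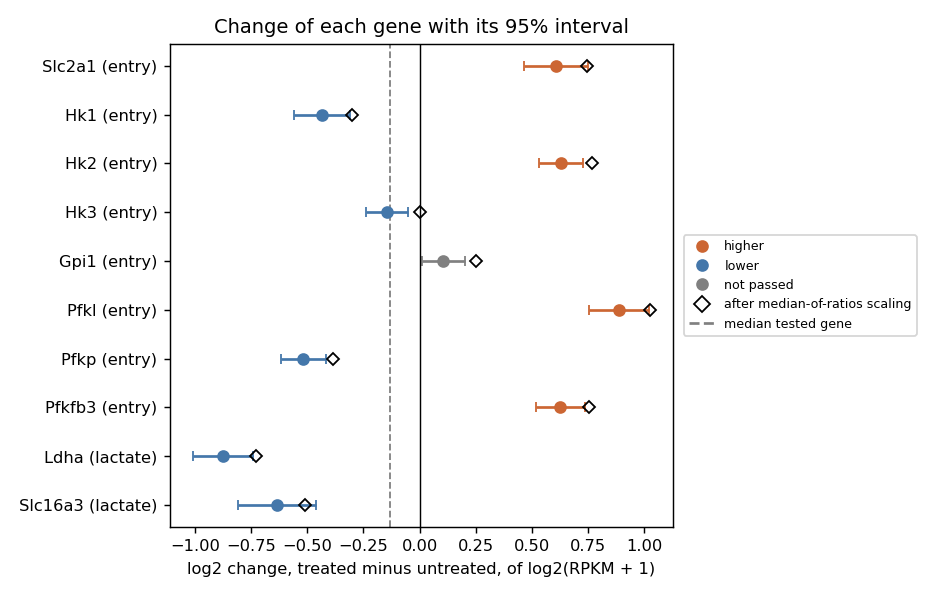
Log2 change (log2(RPKM + 1), treated less untreated) of each of the 10 genes with its 95% interval, coloured by call, with open diamonds for the value after median-of-ratios scaling and a dashed line at the median tested gene, -0.13. Pfkl lies farthest to the right at 0.89 and Ldha farthest to the left at -0.87, and only Hk3 has a diamond on the other side of 0.

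Entry and lactate genes were set side by side in each library as the mean log2(RPKM + 1) of the 8 and of the 2 genes. The entry mean was 4.02, 4.04 and 4.04 in untreated and 4.22, 4.23 and 4.31 in treated libraries. The lactate mean was 5.01, 5.10 and 5.0 in untreated and 4.15, 4.31 and 4.39 in treated libraries. Entry minus lactate was -0.99, -1.07 and -0.96 in untreated and 0.07, -0.08 and -0.09 in treated libraries. The lactate mean was the higher one in each untreated library, while the means of the treated libraries lay close together. How the 2 means stand to each other depends on the gene lengths behind the RPKM. Entry minus lactate rose by 0.97 from untreated to treated libraries, since the entry mean was higher by 0.22 and the lactate mean fell by 0.75. This is a description with no test, since the genes were chosen with earlier results known, and the entry mean joins 4 rising and 3 falling genes.

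**Figure D4:**
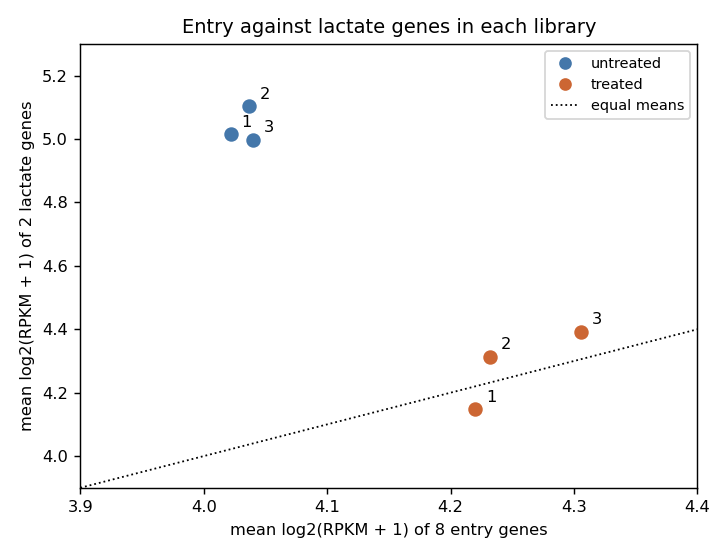
Mean log2(RPKM + 1) of the 8 entry genes (horizontal axis) against that of the 2 lactate genes (vertical axis) in each library, labelled by replicate number, with a dotted line where both means are equal. Untreated libraries lie at the upper left near 4.03 and 5.04, and treated libraries at the lower right near 4.25 and 4.29, close to the line.

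By RPKM, untreated libraries had the order Ldha, Hk3, Gpi1, Hk1 and Slc2a1. Then came Pfkp, Hk2 and Pfkl with overlapping ranges, followed by Slc16a3 and Pfkfb3. In treated libraries the ranges of Ldha and Hk3 overlapped at the top, followed by Gpi1, by Pfkl and Slc2a1 with overlapping ranges, by Hk2, by Pfkfb3 and Hk1 with overlapping ranges, by Pfkp and by Slc16a3. In RPKM, Pfkfb3 was thus the lowest of the 10 in untreated libraries and Slc16a3 in treated libraries. These orders depend on the gene lengths behind the RPKM, and the gene models are not given in the sources used here. Within the treated group, replicate 3 had the highest value for 8 of the 10 genes and the lowest for 0. This was not counted over all tested genes. Across genes with whole reads, treated replicates 1 and 3 differed most, with a chi-square per gene of 15.7. It was 4.39 and 6.69 for the other treated pairs and 1.64 to 3.09 for untreated pairs.

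The other genes of glucose use, a list of 57 of which 46 were expressed enough to be tested, held 12 higher, 17 lower and 17 not passed, with a median log2 change of -0.03, beside 64.8% of all tested genes called, 18.8% higher and 46.0% lower. With median-of-ratios scaling 17 were higher and 15 lower. In lower glycolysis, 4 of 11 tested genes rose, 4 fell and 3 did not pass, a share called near that 64.8%. Aldoc, an aldolase isoform, fell 5.19-fold from 14.7 ± 0.476 to 2.83 ± 0.125 RPKM (adjusted p = 2.35e-09), whereas Aldoa, the abundant aldolase, rose 1.29-fold from 327 ± 3.49 to 420 ± 19.2 (adjusted p = 0.000153). Of the enolase genes, Eno2 fell 2.55-fold from 5.02 ± 0.0689 to 1.97 ± 0.155 and Eno1 fell 1.27-fold from 92.8 ± 1.07 to 73.2 ± 2.11. Pkm, the pyruvate kinase gene just before the lactate step, rose 1.29-fold from 668 ± 14.6 to 865 ± 40.5 RPKM (adjusted p = 0.000223) and was named after its value was seen. Aldoa, Eno1 and Pkm are known to have processed pseudogenes, with which reads may be shared.

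Among 7 tested genes of hexose phosphorylation and its branches, 3 rose, Adpgk fell, and 3 did not pass (G6pc3, Slc37a4 and Pgm1). Of all tested genes, 64.8% were called, 18.8% higher and 46.0% lower. Gfpt1, which opens the hexosamine pathway, rose 1.26-fold from 5.95 ± 0.117 to 7.52 ± 0.641 RPKM. Pgm2, a phosphoglucomutase under the symbol of the table, rose 1.23-fold from 10.4 ± 0.641 to 12.7 ± 0.773, and Ugp2, which makes UDP-glucose, rose 1.14-fold from 34.0 ± 1.1 to 38.8 ± 2.52 (adjusted p = 0.0163). The call of Ugp2 ended without untreated replicate 3 (adjusted p = 0.0709) or treated replicate 2 (adjusted p = 0.0693).

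Of 10 tested genes of pyruvate entry into mitochondria, 2 rose, 3 fell and 5 did not pass, beside the 64.8% of all tested genes called. Mpc1, a subunit of the mitochondrial pyruvate carrier, rose 1.66-fold from 34.7 ± 0.937 to 57.7 ± 3.11 RPKM (adjusted p = 2.02e-06). Pdk1, a kinase that inhibits pyruvate dehydrogenase, fell 2.85-fold from 6.27 ± 0.195 to 2.20 ± 0.0485 (adjusted p = 6.70e-08), while its relative Pdk3 rose 1.24-fold from 3.75 ± 0.286 to 4.66 ± 0.240. Pdha1, a catalytic subunit of pyruvate dehydrogenase, fell 1.247-fold from 22.7 ± 0.610 to 18.2 ± 0.931.

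All 6 regulators passed, 3 higher and 3 lower, beside the 64.8% of all tested genes called, 18.8% higher and 46.0% lower. Myc, a transcription factor known to drive Ldha and other glycolytic genes, fell 3.72-fold from 9.62 ± 0.516 to 2.59 ± 0.114 RPKM (adjusted p = 2.17e-08). Hif1a, the regulated subunit of hypoxia-inducible factor, fell 1.46-fold from 16.6 ± 0.540 to 11.4 ± 1.35 (adjusted p = 0.000353) and was named after its value was seen. Txnip, an arrestin that lowers glucose uptake by taking Slc2a1 off the surface, fell 1.6-fold from 95.3 ± 1.81 to 59.5 ± 2.20, whereas the related Arrdc4 rose 1.58-fold from 3.40 ± 0.0942 to 5.37 ± 0.273. Mlxip, the glucose-sensing factor MondoA, rose 1.48-fold from 10.4 ± 0.365 to 15.4 ± 0.221.

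**Figure D5:**
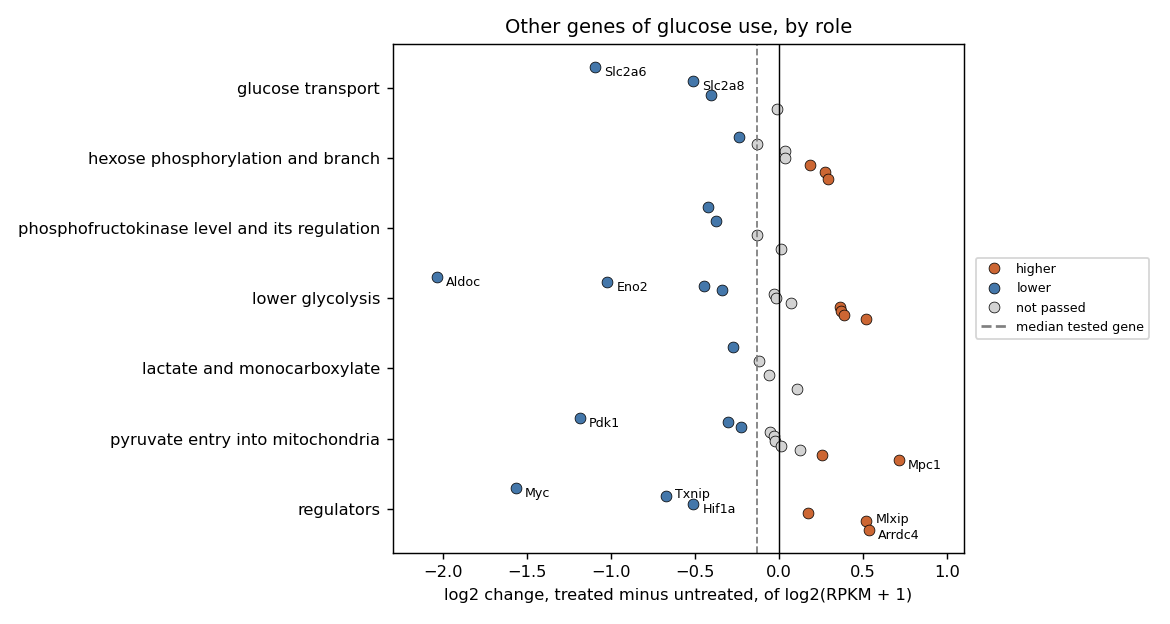
Log2 change (log2(RPKM + 1), treated less untreated) of the 46 tested further genes of glucose use in 7 rows by role, 1 point per gene coloured by call, with a dashed line at the median tested gene. Aldoc at -2.04 and Myc at -1.57 lie farthest to the left and Mpc1 at 0.71 farthest to the right.

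The tested genes whose pattern over the 6 libraries was most like that of Slc2a1 were Cacfd1, Ctsh and C1qb, with Pearson r of 0.9997, 0.9995 and 0.9995. For Ldha they were Hmga1, Tuba1b and Mpdu1, with r of 0.9998, 0.9996 and 0.9996. These 6 points share their libraries and fall into 2 groups, so that high values are common, and r was above 0.99 for 190 genes with Slc2a1 and 571 with Ldha.

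Some of the 10 genes have near copies or overlap other genes. Stretches of at least 75 bases with 95% identity in transcripts of other genes were found for Ldha (5 pseudogenes, of which the 1 in the table had at most 0.181 RPKM) and Gpi1 (1 pseudogene at no more than 0.0932 RPKM, and Adh5, Chpt1 and Mrpl27 over shorter stretches). The summed level of the 4 genes with a match to Gpi1 was 50.5 to 63.5 RPKM. Exons of Pfkp overlap 748 bases of Pitrm1 on the other strand, which stood at 14.6 to 16.8 RPKM, and those of Hk3 overlap 34 bases of Unc5a. Noncoding genes on the other strand overlap Gpi1 over 741 bases (Gm26762), Hk1 over 157 (Hk1os) and Slc2a1 over 105 (Gm12868, listed at 0 in every library). The library kit keeps strand, but whether reads were assigned by strand is not given in the sources used here, so reads from such overlaps may be counted in either gene.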

How the data were processed

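RNA of 6 macrophage libraries was compared, 3 untreated and 3 treated. The deposited values were RPKM on mouse GRCm38 (mm10), per the file headers and the submitters' processing notes. The aligner, counting program, gene models and use of strand are not given in the sources used here. Columns matched sample titles, and 0 columns belonged to no sample. Depth and reads were recovered from the RPKM values: with GENCODE M21 exon lengths, 9371 of 18737 genes above 0 came out as whole reads within 0.001, and for listed genes without such a match a length was searched up to 30000 bases. Intervals are 95% intervals from limma for the difference between the group means, built from the variance between libraries. Reads behind a value give counting error only.

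A gene was tested if 3 or more libraries reached 1 RPKM. The values log2(RPKM + 1) were fitted with limma 3.58.1 under R 4.3.3, with group as the only term and the prior variance following the mean level, and p was adjusted over all 10173 genes. Log2 changes understate those of genes near 1 RPKM, and folds are ratios of mean RPKM. Pseudocounts, filters, scalings, a model without trend, a replicate term and leaving out each library were tried. The test was also run on simulated reads in which few genes changed. Most tested genes were called in these data, so that run does not give the error rates here. All 10 genes were named, with up to 4 further genes per role by smallest p, and Hif1a and Pkm beyond the rule. The genes and lists were chosen with earlier results of these data known. Shares and ranges were computed with pandas 2.3.3. Promoter sequences are RefSeq's on GRCm38.p6, with all 10 genes matched by symbol.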

Additional observations from a re-analysis of the deposited data

How the results depend on the processing

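Of the 10 genes, 8 kept direction and call in all 14 alternatives run (pseudocounts of 0.1 and 0.5, no filter, a filter of 5 RPKM, both scalings, no intensity trend, the replicate block and leaving out each library), and the exceptions were Hk3 and Gpi1. With median-of-ratios scaling 3064 genes of the whole table were higher and 3025 lower, in place of 1915 and 4679. On the log2 scale, that scaling also turned the sign of Hk3 (0.0026), Slc2a9 (0.10), Slc16a7 (0.0047) and Ldhb (0.068), and upper-quartile scaling that of Slc2a9 (0.075) and Ldhb (0.039). The scalings divide treated libraries by less than untreated ones, which moves every change upward. With a pseudocount of 0.1, entry minus lactate rose by 1.05 in place of 0.97. Leaving out 1 library gave -0.050 to 0.021 for Slc2a9 and -0.026 to 0.044 for 9630033F20Rik, whose signs turned, and 8 to 10 calls among the 10 genes. Deviations from the group means correlated at 0.197, -0.031 and -0.162 for same-numbered libraries and at -0.319 to 0.326 for differently numbered ones. So few values cannot show whether the replicate numbers pair the libraries. With the replicate block, 6531 genes were called in place of 6594, and 4 of the 10 genes were higher and 5 lower, as without it. Counting error was largest where reads were fewest, for Slc16a3 in treated and Slc2a1 in untreated libraries.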
